A study of Mus musculus with 8 samples.

Results

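The 48 genes described here act in the G2/M transition and in mitosis: the cyclins and kinase that start mitosis, the spindle checkpoint, the centromere and kinetochore, the mitotic kinesins, condensin and the machinery of cytokinesis. They were chosen by symbol, from a written list of genes with these roles, drawn up with earlier results of these data known. All 48 were found among the 55401 genes of the tables, and all 48 were abundant enough to be among the 12122 genes tested. RNA was measured in AML12 cells, a mouse hepatocyte-derived line, in 4 control dishes left untreated and in 4 dishes cultured for 1 h under Opti-ELF-WMF, a pulsed magnetic field of extremely low frequency with a peak of 100 mG, a pulse width of 4 ms and pulse frequencies stepping from 1 to 8 Hz. The study's methods state, for its experiments in general, that control and exposed cells were prepared together from 1 batch. Whether all dishes measured here shared 1 batch is not stated. The control dishes stood in another incubator of the same model with the stimulator off, so the field and the incubator cannot be told apart.

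In a dividing cell, cyclin A2 and then cyclin B bound to CDK1 drive entry into mitosis, and CDC25 phosphatases switch that kinase on. Kinases of the Polo and Aurora families build the spindle, the checkpoint holds anaphase back until every kinetochore is attached, and the anaphase-promoting complex with CDC20 then marks securin and cyclin B for destruction. Transcripts of these genes are scarce in G1 and accumulate in G2 and mitosis, so in RNA from an unsynchronized dish they follow the share of cycling cells as well as the level in each cell. In bulk RNA, more cells in G2 or mitosis and more RNA per such cell cannot be told apart. Hepatocytes of the adult liver rarely divide, whereas AML12 cells proliferate in culture.

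The values are in TPM, a length-corrected measure of transcript abundance that sums to the same total in every dish. Since TPM keeps no sequencing depth, how deeply each library was read, and with it the counting error, is unknown. Transcripts of 19386 to 20114 genes were detected per dish. The line's label was checked against markers. Of 12 hepatocyte markers, 9 had a mean TPM of at least 1, among them Hnf4a at 193 TPM and the keratins Krt8 and Krt18, while the late hepatocyte enzyme gene Cyp2e1 was at 0 in every dish. None of 10 fibroblast and stellate cell markers and none of 6 endothelial markers reached a mean of 1 TPM, and of 7 macrophage and leukocyte markers only Cd68 did. The summed TPM of the hepatocyte markers was 4818 to 5042 in control and 5118 to 5374 in exposed dishes. It was 0.61 to 1.99 and 0.67 to 1.38 for the fibroblast list (Lum and Lrat at 0), 0.01 to 0.09 and 0.03 to 0.09 for the endothelial list (Cdh5 at 0), and 1.79 to 2.38 and 1.26 to 2.04 for the leukocyte list (Adgre1 and Clec4f at 0). The keratins held most of the hepatocyte sum. Lower in the mean were Alb (log2 difference -0.15, unadjusted p = 0.0168, limma), Apoa1 (-0.22, 0.0983), Ttr (-0.04, 0.385) and Afp (-0.09, 0.587). Higher in the mean were Krt18 (0.09, 0.00727), Krt8 (0.07, 0.0138), Apoe (0.15, 0.046), Hnf4a (0.08, 0.185), Serpina1a (0.06, 0.577) and Cdh1 (0.02, 0.368). After the scaling described next, all exposed dishes lay below all control dishes for Alb (-0.17, unadjusted p = 0.00767). Of the 10 hepatocyte markers tested 6 were higher and 4 lower in the mean, and their part in the results was not tested. Genes of the mitochondrial genome held 8.69 to 9.42% of TPM in control dishes and 5.99 to 7.69% in exposed dishes. A lower share of these abundant transcripts raises the TPM of all others, so counts over the 48 genes and over the further gene lists are also given after median-of-ratios scaling, which sets the dishes to a common median gene. The median log2 difference of all genes tested was 0.03 on the deposited TPM and 0.01 after that scaling.

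Promoters of genes expressed in G2 and mitosis are known for the cell cycle homology region (CHR), which is bound by the MuvB complexes, and for CCAAT boxes, which are bound by NF-Y. RefSeq promoter windows on GRCm38.p6, from 250 bases before to 50 bases after a gene's start, were matched for 40 of the 48 genes, in 43 windows, with a pair of overlapping windows for 3 genes (Bub3, Ect2 and Prc1). The windows of Ccna2, Cdc25c, Aurkb, Incenp, Spc24, Kif20a, Tpx2 and Smc4 were not matched. RefSeq's start is not always the end of the gene in GENCODE M21. The windows of Cdca8, Kif2c and Kif4 and the stretch of Bub3 printed below lie inside the GENCODE gene. In what follows, the start is RefSeq's. The CHR letters TTTGAA, searched on both strands, were in 32 of the 43 windows (74.4%), against 17.9% of all 32851 windows. The variant TTCGAA was in 4 windows (9.3%), against 1.56% of all. CCAAT, searched on both strands, was in 33 windows (76.7%), against 37.4% of all, and 29 windows (67.4%) held both TTTGAA and CCAAT, against 6.95%. A CHR match overlapped a CCAAT match in 1 place. The matches also lay close to the start. A TTTGAA match began within 50 bases of it in 67.4% of the members' windows and in 4.94% of all windows, and a CCAAT match began in the 100 bases before it in 67.4% and 19.3%.

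The 150-base stretches below end 25 bases after the start, run 5′ to 3′ along the gene and show how these letters are laid out. Capitals mark the CHR letters (TTTGAA) and the CCAAT box, or the reverse complement of either. Kif23, Bub3, Ube2c, Ccnb2, Ccnb1 and Cdk1 are shown because their values are described in full, Ect2 because its mean was lower in exposed dishes, and Ncaph because its window holds neither motif.
Kif23 (chr9:61946775-61946924, minus strand): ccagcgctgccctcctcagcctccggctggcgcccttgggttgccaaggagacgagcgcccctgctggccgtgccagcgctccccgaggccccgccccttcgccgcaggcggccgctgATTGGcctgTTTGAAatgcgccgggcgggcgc
Bub3 (chr7:131560245-131560394, plus strand): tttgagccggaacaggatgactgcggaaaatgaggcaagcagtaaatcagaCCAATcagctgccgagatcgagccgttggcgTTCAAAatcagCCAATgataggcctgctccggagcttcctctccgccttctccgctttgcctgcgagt
Ube2c (chr2:164769804-164769953, plus strand): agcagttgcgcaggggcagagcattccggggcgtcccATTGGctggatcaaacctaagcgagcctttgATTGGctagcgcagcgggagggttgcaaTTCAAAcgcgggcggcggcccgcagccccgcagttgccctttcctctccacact
Ccnb2 (chr9:70421530-70421679, minus strand): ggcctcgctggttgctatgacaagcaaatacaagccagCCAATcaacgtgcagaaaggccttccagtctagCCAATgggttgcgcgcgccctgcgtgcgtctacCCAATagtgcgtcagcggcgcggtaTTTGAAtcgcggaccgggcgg
Ccnb1 (chr13:100786462-100786611, minus strand): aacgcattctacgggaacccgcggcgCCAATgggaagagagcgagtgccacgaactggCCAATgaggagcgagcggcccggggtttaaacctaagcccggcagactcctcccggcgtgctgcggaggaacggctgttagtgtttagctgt
Cdk1 (chr10:69352888-69353037, minus strand): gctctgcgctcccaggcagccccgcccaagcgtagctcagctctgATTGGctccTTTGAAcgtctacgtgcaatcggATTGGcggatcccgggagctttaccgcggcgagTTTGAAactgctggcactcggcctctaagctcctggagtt
Ect2 (chr3:27153830-27153979, minus strand): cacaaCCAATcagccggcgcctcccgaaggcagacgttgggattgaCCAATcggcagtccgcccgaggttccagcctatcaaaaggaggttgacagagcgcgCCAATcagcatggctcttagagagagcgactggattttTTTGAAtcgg
Ncaph (chr2:127133930-127134079, minus strand): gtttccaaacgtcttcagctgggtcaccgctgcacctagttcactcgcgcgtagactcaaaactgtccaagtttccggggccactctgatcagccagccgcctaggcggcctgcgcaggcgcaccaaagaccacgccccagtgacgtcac

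In several of these stretches CCAAT matches recur at a like distance. Counting a match in overlapping windows once, of 31 neighbouring pairs of CCAAT matches in 1 orientation, 10 pairs in 8 genes began 30 to 35 bases apart, including those of Ccnb1, Ccnb2, Cdk1 and Ube2c. Of 29 TTTGAA matches with a CCAAT match upstream, 13 matches in 13 genes began 25 to 40 bases after the nearest one. Distances were not counted over all windows, so whether these spacings are particular to these genes was not tested. On the deposited TPM, the 29 genes with TTTGAA had a median log2 difference between conditions of 0.05, with 8 at an unadjusted p under 0.05. The 11 matched genes without it had 0.06, with 6. Over all genes tested 12% were higher at that p and 3.65% lower. Genes with and without the motif were not counted after median-of-ratios scaling. The 7 genes with neither motif (Mad2l1, Pttg1, Birc5, Nuf2, Kif18a, Nusap1 and Ncaph) had a median of 0.08. On the deposited TPM all 7 were higher in the mean of exposed dishes, against 63.7% of all genes tested. After median-of-ratios scaling Nusap1 was lower (log2 difference -0.003) and the others were higher, against 52.9% of all genes tested that were higher. No test was made of these differences.

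**Figure D1:**
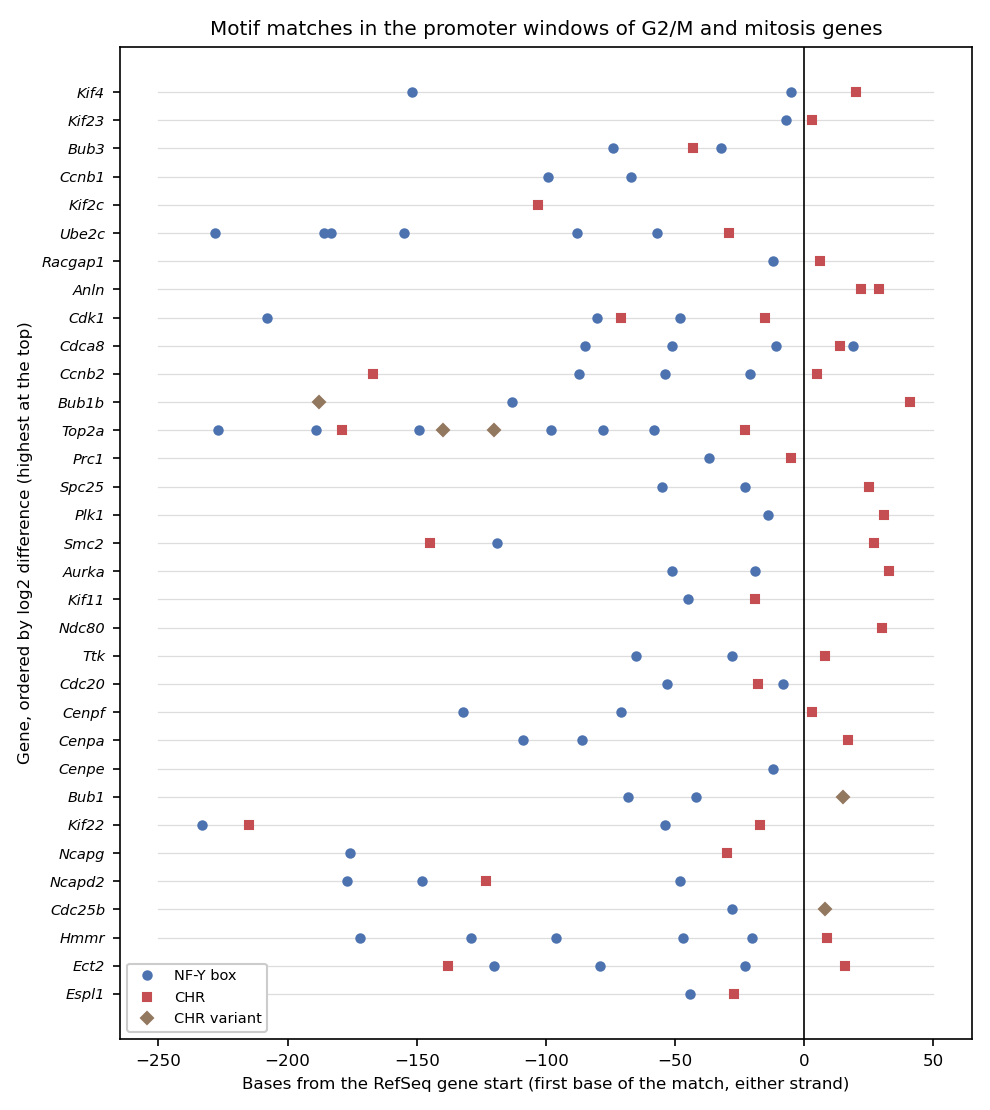
Positions of motif matches in the promoter windows of the 33 genes with at least 1 CHR or CCAAT match. The horizontal axis gives bases from the RefSeq gene start, base 1 being the first base from that start onward. Genes are ordered by log2 difference with the highest at the top. Circles are CCAAT matches (NF-Y boxes), squares TTTGAA and diamonds TTCGAA. The squares gather around the start and the circles before it, from the top of the plot to the bottom.

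The question put to these genes is whether 1 h of Opti-ELF-WMF went with other levels of mitotic transcripts. On the deposited TPM, 43 of the 48 genes were higher in the mean of the exposed dishes, against 63.7% of all genes tested, and the median log2 difference was 0.06. The differences were small, with changes of the mean from -9.24% (Espl1) to 9.82% (Kif4). None of the 48 passed limma's test with Benjamini-Hochberg adjustment over all 12122 genes, and neither did any other gene (0% called). At an unadjusted p under 0.05, 16 of the 48 were higher (33.3%) and 0 lower, while over all genes tested 12% were higher and 3.65% lower. The count of 16 was 8 without control replicate 2 and 9 without exposed replicate 3. In 12 of the 48 (25%) every exposed dish lay above every control dish, against 8.01% of all genes tested, and in 0 of them every exposed dish lay below, against 1.86%.

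The counts were smaller under the other scalings. After median-of-ratios scaling 37 of the 48 genes were higher in the mean, against 52.9% of all genes tested, with a median log2 difference of 0.04. The count at an unadjusted p under 0.05 was then 6 (12.5%) higher and 0 lower, against 6.8% and 5.51% of all genes tested. In 4 genes (8.33%) the exposed dishes lay above the control dishes without overlap and in 0 below, against 4.58% and 3.37%. None of the 48 passed the adjusted test, which called 0.00826% of all genes. The 6 genes were Kif23, Bub3, Kif4, Ccnb1, Kif20a and Ncaph. The other 10 of the 16 had scaled log2 differences of 0.04 to 0.07, with unadjusted p of 0.0605 for Ube2c, 0.098 for Anln, 0.0984 for Ccnb2, 0.104 for Tpx2, 0.109 for Pttg1, 0.151 for Cdk1, 0.155 for Mad2l1, 0.168 for Birc5, 0.169 for Top2a and 0.193 for Nuf2. With TPM rescaled to leave out the mitochondrial genome, 35 genes were higher in the mean (72.9%), against 49% of all genes tested. At an unadjusted p under 0.05, 3 genes were higher (6.25%; Kif23, Bub3 and Kif4) and 0 lower, against 5.7% and 5.57%. The dishes did not overlap in 1 gene, Bub3, which was higher (2.08%), against 3.8% of all genes higher and 3.26% lower, and none of the 48 was among the 0.00819% with an adjusted p under 0.05. The set's median difference above that of all genes was 0.03 on the deposited TPM and under each of the other scalings. Each scaling multiplies all genes of a dish by the same factor, so this value could hardly change. Only the pseudocount and the filter could move it. The 48 genes were more abundant than most, with a median of 97.0 TPM against 21.9 over all genes tested, and varied less between dishes of a condition, with a median SD on the log2 scale of 0.043 against 0.078. The part of these properties in the counts was not tested.

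**Figure D2:**
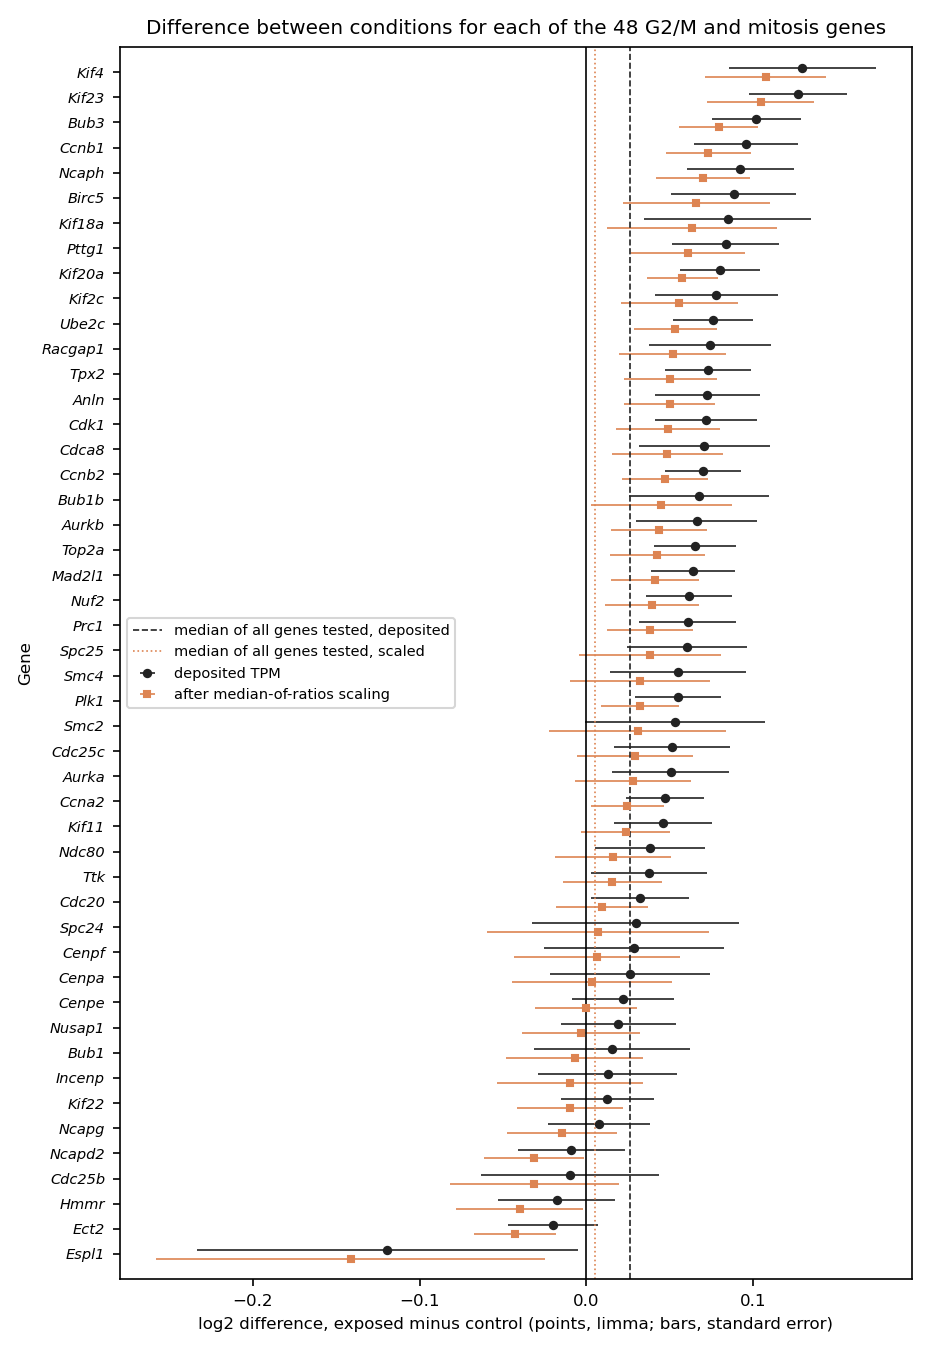
Log2 difference between exposed and control dishes (horizontal axis, limma on log2(TPM + 1)) for each of the 48 genes, with standard errors as bars; circles are deposited TPM, squares values after median-of-ratios scaling, and the vertical lines the medians of all genes tested. Of the circles 43 lie above 0 and of the squares 37, Kif4 and Kif23 are highest and Espl1 is lowest with the widest bar.

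Averaged over the 48 genes, log2(TPM + 1) in the single dishes was 6.33, 6.32, 6.33 and 6.34 in control replicates 1 to 4 and 6.36, 6.39, 6.40 and 6.36 in the exposed ones. Every exposed dish therefore stood above every control dish, by 0.05 in the mean. Their summed TPM was 4814 to 4900.4 in control dishes and 4996 to 5113 in exposed dishes. Exposed replicates 2 and 3 were the highest, with 41 and 43 of the 48 genes above the gene's control mean. Exposed replicate 4 had the fewest of the exposed dishes, 35, and control replicate 4 had 34. Such counts were not made over all genes tested. In exposed replicate 2 the median of all genes tested was 0.06 above its control mean, the mean of the 48 genes was 0.06 above theirs, and the mitochondrial share was the lowest of all dishes at 5.99%. After median-of-ratios scaling the sums still did not overlap (4824 to 4939 and 4945.0 to 5076), and without mitochondrial genes they met (up to 5380.96 in control and from 5381.03 in exposed dishes). The means of log2 values, in which every gene weighs the same, did overlap after median-of-ratios scaling, with control means from 6.33 to 6.35 and exposed means from 6.35 to 6.39. Exposed replicates 1 and 3 then stood 0.04 and 0.05 above the control mean and replicates 2 and 4 each 0.01 above it. Control replicate 1 stood 0.01 above it as well. On that scale 41, 30, 40 and 25 of the 48 genes were above the gene's control mean in exposed replicates 1 to 4. In control replicates 1 to 4 the counts were 30, 16, 21 and 30.

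**Figure D3:**
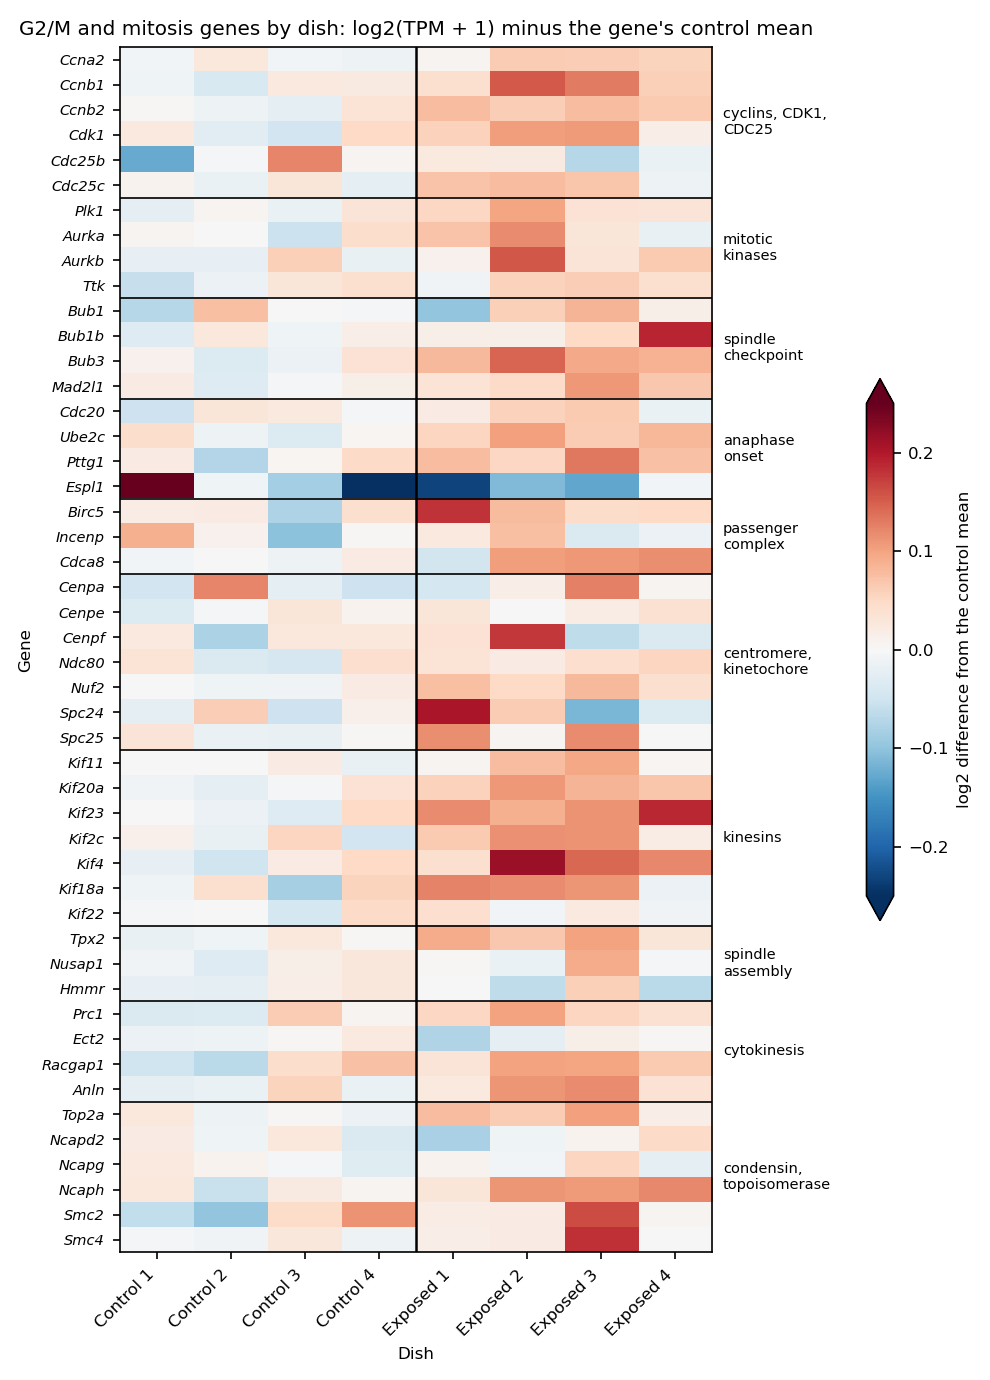
Each of the 48 genes (rows, grouped by role) in each dish (columns), coloured by log2(TPM + 1) minus the gene's mean over the control dishes, red for higher and blue for lower. The exposed columns are mostly red, while Espl1, Spc24 and Cdc25b change colour within a condition.

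Among the cyclins, CDK1 and the CDC25 phosphatases, 5 of 6 genes were higher in the mean, against 63.7% of all genes tested. At an unadjusted p under 0.05, 3 of them were higher, against 12%. After median-of-ratios scaling 1 was, against 6.8%. Cdk1, the kinase at the centre of mitotic entry, was the most abundant of the 48 genes at a mean of 357 TPM. It stood at 354, 341, 336 and 360.2 TPM in control dishes and 362, 374, 375 and 352 in exposed dishes, so the conditions overlapped through exposed replicate 4 (log2 difference 0.07, SE 0.03, unadjusted p = 0.0429, adjusted p = 0.302, limma). Ccnb1 encodes cyclin B1, the partner that CDK1 needs to enter mitosis. It had 152, 149, 156 and 156 TPM in control dishes and 157, 170.2, 167 and 159.6 in exposed dishes. The lowest exposed dish lay just above the highest control dish, and the log2 difference was 0.10 (SE 0.03, unadjusted p = 0.0126, adjusted p = 0.191, limma), or 0.07 after median-of-ratios scaling (unadjusted p = 0.018). A pseudogene of Ccnb1 was listed at a mean of 0.801 TPM and that of Ccnb2 at 0.441, and how reads shared with these copies were divided is not given. Ccnb2, for cyclin B2, had 128 to 134 TPM in control dishes and 136 to 138 in exposed dishes, a difference of 0.07 (SE 0.02, unadjusted p = 0.0124, adjusted p = 0.191, limma) that had an unadjusted p of 0.0984 after scaling. Ccna2, for cyclin A2, had 149 to 153 TPM in control dishes and 151 to 157 in exposed dishes, which overlapped. The phosphatase genes were low, with Cdc25c at a mean of 27.5 TPM and Cdc25b at 22.6. Cdc25b was the group's lower gene, with a change of -0.848% in the mean, and its control dishes ran from 20.7 to 24.7 TPM around exposed dishes at 21.5 to 23.1.

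The 4 mitotic kinases were all higher in the mean, by 2.7% (Ttk) to 4.79% (Aurkb), against 63.7% of all genes tested that were higher. None of the 4 had an unadjusted p under 0.05. Plk1, the Polo kinase of spindle assembly and mitotic exit, was the most abundant of them at a mean of 135 TPM and had an unadjusted p of 0.0599. Aurkb, the kinase of the chromosomal passenger complex, ran from 94.7 to 100.2 TPM in control dishes and from 96.9 to 107 in exposed dishes, which overlapped. The other passenger genes differed in their values. Birc5, which encodes survivin, had 228, 228, 213 and 231 TPM in control dishes and 255, 238, 232 and 233 in exposed dishes, without overlap and with exposed replicate 1 the highest (log2 difference 0.09, SE 0.04, unadjusted p = 0.0408, adjusted p = 0.296, limma). Incenp, the scaffold of the complex, was 0.816% higher in the mean with overlapping dishes.

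Of the 4 spindle checkpoint genes, Bub3 and Mad2l1 had conditions without overlap, and Bub1 and Bub1b did not. Over all genes tested 8.01% were higher without overlap. After median-of-ratios scaling this held for Bub3 alone of the 4, against 4.58% of all genes tested. Bub3 encodes the small protein that carries the BUB1 and BUBR1 kinases to kinetochores and is the gene ENSMUSG00000066979 on chromosome 7, from 131560222 to 131571895 (GENCODE M21 on GRCm38). It had 122, 118, 119.7 and 124 TPM in control dishes and 128, 134, 129 and 128 in exposed dishes. The log2 difference was 0.10 (SE 0.03, unadjusted p = 0.00344, adjusted p = 0.139, limma), and it was 0.08 after median-of-ratios scaling (unadjusted p = 0.00814). Mad2l1, for the checkpoint protein MAD2, had 155 to 160.4 TPM in control dishes and 162 to 170.4 in exposed dishes (log2 difference 0.06, SE 0.03, unadjusted p = 0.0307, adjusted p = 0.258, limma). Bub1 had 47.5 to 52.6 TPM in control dishes and 46.6 to 53.0 in exposed dishes, nearly the same range.

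Of the 4 genes of anaphase onset, Ube2c and Pttg1 had an unadjusted p under 0.05, both higher, against 12% of all genes tested. After median-of-ratios scaling none of the 4 did, against 6.8% higher. Ube2c, the ubiquitin-conjugating enzyme of the anaphase-promoting complex, was second in abundance at 302 TPM. It had 303, 291, 287 and 295 TPM in control dishes and 305, 316, 308 and 312 in exposed dishes, without overlap (log2 difference 0.08, SE 0.02, unadjusted p = 0.0109, adjusted p = 0.183, limma). Pttg1, for securin, the inhibitor of separase, had 113 to 124 TPM in control dishes, of which the highest was 123.53, and 124 to 131 in exposed dishes, of which the lowest was 123.76. Cdc20, the activator of the complex, was 2.26% higher in the mean with overlapping dishes. Espl1, for separase itself, was lower in the mean, by a change of -9.24%. Its control dishes had 45.1, 34.6, 32.8 and 28.8 TPM and its exposed dishes 29.5, 32.2, 31.7 and 34.7. Without control replicate 1 the log2 difference was 0.00 in place of -0.12 (SE 0.11, unadjusted p = 0.321, adjusted p = 0.672, limma).

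All 7 kinesin genes were higher in the mean, against 63.7% of all genes tested, and 6 were after median-of-ratios scaling, against 52.9%. On either scale 3 had an unadjusted p under 0.05, Kif23, Kif20a and Kif4. Of all genes tested 12% were higher at that p on the deposited TPM and 6.8% after scaling. Kif23 encodes MKLP1, the motor of the centralspindlin complex in the spindle midzone, and had the smallest p of the 48 genes. It is ENSMUSG00000032254 on chromosome 9, from 61915905 to 61946774. Its control dishes had 177, 175, 173 and 183 TPM and its exposed dishes 192, 188, 191 and 202, with every exposed dish above every control dish. The log2 difference was 0.13 (SE 0.03, unadjusted p = 0.00161, adjusted p = 0.122, limma) and ran from 0.11 to 0.14 when each dish was left out in turn. Kif20a, for the cytokinesis motor MKLP2, had 131, 130.1, 132 and 135 TPM in control dishes and 138, 142, 140.2 and 139 in exposed dishes, also without overlap (log2 difference 0.08, SE 0.02, unadjusted p = 0.00793, adjusted p = 0.168, limma). Kif4, a chromosome-bound kinesin, had the largest difference of the 48 genes, 0.13 (SE 0.04, unadjusted p = 0.0154, adjusted p = 0.203, limma). It had 26.1, 25.5, 26.8 and 27.4 TPM in control dishes and 27.2, 30.8, 29.3 and 28.8 in exposed dishes, with exposed replicate 1 inside the control range. After median-of-ratios scaling the dishes of Kif4 no longer overlapped, those of Kif23 did, and the differences were 0.11 and 0.10. Kif18a, which dampens chromosome movement at the metaphase plate, was the least abundant of the 48 genes at 15.4 TPM. It had 14.0 to 15.5 TPM in control dishes, about 16.2 to 16.3 in exposed replicates 1 to 3 and 14.7 in replicate 4.

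**Figure D4:**
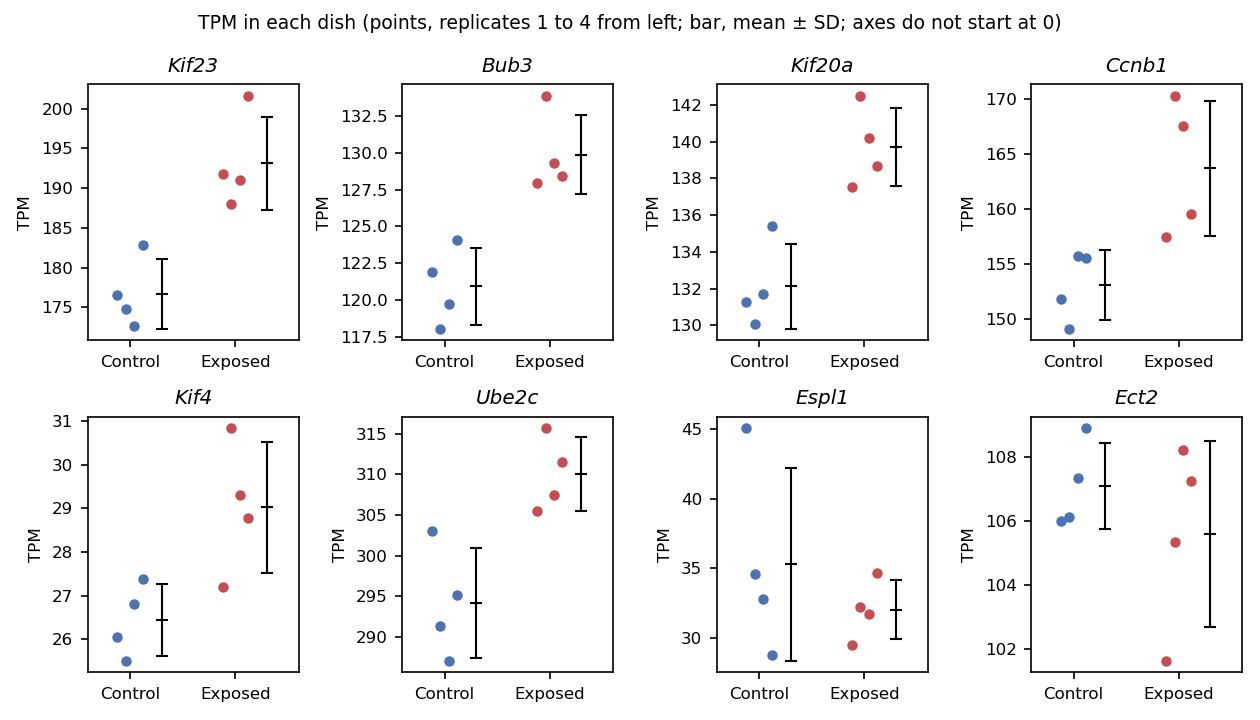
TPM of 8 genes in each dish (vertical axes, which do not start at 0), with control dishes in blue, exposed dishes in red, replicates 1 to 4 from left to right and the mean ± SD as a black bar. The exposed dishes lie above all control dishes for Kif23, Bub3, Kif20a, Ccnb1 and Ube2c, whereas Kif4 overlaps in 1 dish and Espl1 and Ect2 overlap widely.

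The 7 centromere and kinetochore genes differed little between conditions. All were higher in the mean, by a median of 0.03 on the log2 scale against 0.08 for the kinesins, a difference that was not tested. Only Nuf2 had an unadjusted p under 0.05. Of all genes tested 63.7% were higher in the mean and 12% were higher at that p. After median-of-ratios scaling 6 of the 7 were higher in the mean, against 52.9%, and none had such a p. Nuf2, a subunit of the NDC80 complex that holds microtubules, had 53.54, 53.19, 53.25 and 54.41 TPM in control dishes and 56.49, 55.51, 56.77 and 55.16 in exposed dishes (log2 difference 0.06, SE 0.03, unadjusted p = 0.039, adjusted p = 0.289, limma). Its partners in the same complex stood otherwise. Ndc80 had 30.6 to 32.5 TPM in control dishes and 32.0 to 32.8 in exposed dishes. Spc24 ran from 45.5 to 56.9 TPM in exposed dishes, wider than its control range of 47.5 to 51.5. The median of this role after median-of-ratios scaling was 0.01, as was that of all genes tested.

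Among the spindle assembly factors, Tpx2, the activator of Aurora A, had 97.7, 98.2, 101 and 99.2 TPM in control dishes and 106, 104, 106 and 101 in exposed dishes. The lowest exposed dish stood at 101.06 TPM and the highest control dish at 100.73, and the log2 difference was 0.07 (SE 0.03, unadjusted p = 0.0185, adjusted p = 0.217, limma). Hmmr, a spindle protein that binds hyaluronan, was lower, with a change of -1.19% in the mean and dishes from 55.8 to 57.9 TPM in control and from 54.1 to 59.1 in exposed cells. Of the 4 cytokinesis genes, only Anln, for the contractile ring protein anillin, had an unadjusted p under 0.05, against 12% of all genes tested that were higher. It had 145 to 153 TPM in control dishes and 149.7 to 159.9 in exposed dishes. After median-of-ratios scaling none of the 4 had such a p, against 6.8% higher. Ect2, the exchange factor that activates RhoA at the cleavage furrow, was the role's lower gene, with 106, 106, 107 and 109 TPM in control dishes and 102, 105, 108 and 107 in exposed dishes (log2 difference -0.02, SE 0.03, unadjusted p = 0.472, adjusted p = 0.778, limma). Its partner Racgap1, which with Kif23 forms centralspindlin, was 5.25% higher in the mean with overlapping dishes.

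Condensin folds chromosomes for mitosis and topoisomerase II untangles them. Top2a, the topoisomerase, followed Cdk1 and Ube2c in abundance at 258 TPM and had 256.97, 249.99, 252.76 and 249.68 TPM in control dishes and 266, 264, 271 and 255 in exposed dishes. Only exposed replicate 4 lay inside the control range (log2 difference 0.07, SE 0.02, unadjusted p = 0.0253, adjusted p = 0.243, limma). The condensin subunits differed in their values. Ncaph, the kleisin of condensin I, had 66.0, 62.2, 65.8 and 65.0 TPM in control dishes and 66.2, 70.0, 69.8 and 70.5 in exposed dishes (log2 difference 0.09, SE 0.03, unadjusted p = 0.0166, adjusted p = 0.21, limma). Ncapd2 and Ncapg, subunits of the same complex, had differences of -0.01 and 0.01 with overlapping dishes. Smc2 and Smc4, the ATPases shared by condensins I and II, were 3.74% and 4.04% higher in the mean, in each case with exposed replicate 3 as the highest dish.

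Of 16 transcription factors and cofactors of G2/M genes (DREAM, MuvB, FoxM1 and NF-Y), 3 had an unadjusted p under 0.05 on the deposited TPM and 3 after median-of-ratios scaling, all higher, with medians of 0.05 and 0.03 on the log2 scale. Over all genes tested the share higher at that p was 12% on the deposited TPM and 6.8% after scaling. The smallest p there belonged to Tfdp1, an E2F partner, with 171 to 180.3 TPM in control dishes and 184 to 199 in exposed dishes (log2 difference 0.13, SE 0.03, unadjusted p = 0.00123, adjusted p = 0.122, limma). Of 16 genes of the CDK1 switch 5 had an unadjusted p under 0.05, of 17 genes of the anaphase-promoting complex 2, and of 15 cohesin genes 1, all higher and led by Ppp2r1a (0.10), Cdc16 (0.06) and Rad21 (0.06) on the log2 scale. After median-of-ratios scaling the counts higher were 2, 0 and 0. At that p 1 of the 15 cohesin genes was lower (Mau2, -0.10, unadjusted p = 0.0351, limma), against 5.51% of all genes tested. Of 35 further kinetochore genes there were 5, led by Pmf1 (0.17), and of 35 further spindle and cytokinesis genes 6, led by the mitotic kinase gene Pbk (0.18), again all higher. These became 3 and 4 after median-of-ratios scaling, and 2 and 2 with TPM rescaled without mitochondrial genes, where 5.7% of all genes tested were higher. The medians of the last 5 lists on the deposited TPM were 0.03 to 0.04, against 0.06 for the 48 genes and 0.03 for all genes tested.

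S phase, in which DNA is replicated, precedes mitosis in the cycle. Of 36 S phase genes, 23 had an unadjusted p under 0.05, all higher, against 12% of all genes tested. After median-of-ratios scaling there were 18, against 6.8%, and without mitochondrial genes 14, against 5.7%. The median log2 difference was 0.10 on the deposited TPM and 0.08 after median-of-ratios scaling. Mcm3, of the replicative helicase, had 129 to 133 TPM in control dishes and 142 to 147 in exposed dishes (log2 difference 0.15, SE 0.02, unadjusted p = 0.000102, adjusted p = 0.122, limma). The mean of the S phase genes minus that of the 48 genes, each relative to its control mean, is untouched by the scaling of a dish apart from the pseudocount. It was 0.01, 0.02, -0.01 and -0.02 in control replicates 1 to 4 and 0.06, 0.08, 0.01 and 0.03 in exposed replicates 1 to 4 on the deposited TPM, and exposed replicate 3 lay inside the control range. No test was made of this gap, since the lists were chosen with results of these data known.

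**Figure D5:**
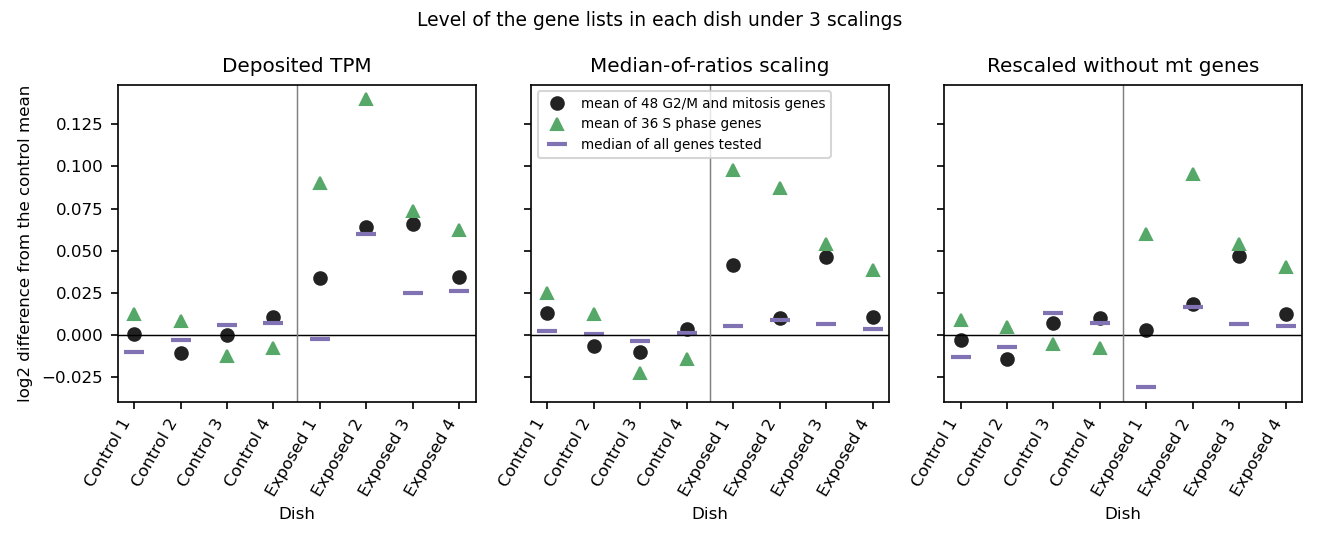
Mean of the 48 G2/M and mitosis genes (circles), mean of 36 S phase genes (triangles) and median of all genes tested (bars) in each dish, as the log2 difference from the control mean (vertical axis), for deposited TPM, median-of-ratios scaling and TPM rescaled without mitochondrial genes. The circles of all 4 exposed dishes lie above all control dishes in the left panel and overlap with them in the other panels, and the triangles of the exposed dishes lie above those of the control dishes in every panel.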

How the data were processed

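The authors sequenced stranded mRNA libraries (150 bp paired-end reads) of AML12 cells, 4 per condition. The authors deposited TPM values, 1 table per dish, and the submitters' processing notes name Trimmomatic 0.39, STAR 2.7.4a, RSEM 1.3.3 and mm10. The annotation and the handling of reads with several matches are not given in the sources used here. Sequencing depth cannot be recovered from TPM, and no interval for counting error was computed.

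The 12122 genes reaching TPM 1 in 4 or more dishes were tested with limma 3.58.1 (lmFit, eBayes with a trend) in R 4.3.3 on log2(TPM + 1), with Benjamini-Hochberg adjustment. Fold changes on that scale understate those of low genes. Median-of-ratios factors used genes above 0 in every dish. Nothing states that the dishes were independent cultures, or whether all of them shared 1 batch of cells. The p-values set the difference between conditions against the spread between dishes of a condition. They do not cover differences between incubators. The closest pair of dishes shared 3.79% of their values, and no dish was merged with another.

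The genes and lists were chosen with earlier results of these data known. Named were up to 12 members with the smallest p in each direction, the 3 highest and 3 lowest in TPM and the leading gene of each further list, and the other members named beside them were added after their values were seen. Promoter sequences are RefSeq's and gene positions GENCODE M21's (all 48 matched). Alternatives covered scaling, pseudocount, filter, variance trend, replicate block and leaving out each dish.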

Additional observations from a re-analysis of the deposited data

Results flagged for a closer look

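In all, 3 single values lay far from the rest of their condition (Dixon's test at 95%, run on 58 sets of 4 dishes, of which chance alone marks about 2.9). For Ncaph it was Opti-ELF-WMF replicate 1, the lowest at 66.17 TPM, whereas the remaining exposed dishes had 69.79 to 70.49. Replicate 4 of the same condition was lowest for both other genes, Kif18a with 14.74 TPM (the rest at 16.18 to 16.33) and Cdc25c with 26.78 TPM (the rest at 28.4 to 28.57).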

How the results depend on the processing

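Median-of-ratios scaling moved the count of the 48 genes at an unadjusted p under 0.05 from 16 to 6, their count without overlap from 12 to 4 and their median log2 difference from 0.058 to 0.035. Rescaling without mitochondrial genes gave 3, 1 and 0.028, and limma without a variance trend gave 9 at an unadjusted p under 0.05. Over all genes, 1 gene had an adjusted p under 0.05 under each of these 3 settings and with TPM of at least 1 in every dish, against 0 of 12122 by limma on the deposited values (1451 higher and 443 lower at an unadjusted p under 0.05). Without the filter the median difference above that of all genes was 0.054 in place of 0.031, as more genes entered the background. The part of level and spread in these changes was not tested.

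Leaving out each dish gave 8 to 17 genes at an unadjusted p under 0.05 (8 without control replicate 2 and 9 without Opti-ELF-WMF replicate 3). The medians were 0.054 to 0.067 (0.023 to 0.040 above all genes). Over all genes, 0 to 6 had an adjusted p under 0.05, the 6 without Opti-ELF-WMF replicate 2. The count without overlap was 12 to 18. It could not fall below 12, since conditions that do not overlap stay apart when a dish is left out. The share of all genes without overlap was not counted there. Leaving out each dish after median-of-ratios scaling, added after seeing the data, gave 3 to 7 genes at an unadjusted p under 0.05. Of 432 alternatives for 27 named genes, 4 changed sign, each by leaving out 1 dish: Espl1 ranged from -0.209 to 0.0015 (the latter without control replicate 1), Ncapd2 from -0.028 to 0.015 (without Opti-ELF-WMF replicate 1) and Cdc25b from -0.052 to 0.031 (without control replicate 3), with 0.011 when Opti-ELF-WMF replicate 3 was left out. Changing only the filter, the variance trend or the replicate block leaves a gene's difference unchanged, so those alternatives could not change a sign. What caused the 4 sign changes was not tested.

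The labels do not say whether dishes of the same replicate number were paired, and deviations were correlated only between dishes of the same number. Deviations of same-numbered dishes from their condition means correlated from -0.042 to 0.026 over all genes, and at -0.147, -0.071, 0.204 and -0.345 over the 48 genes for replicates 1 to 4. With the replicate block, 14 of the 48 genes had an unadjusted p under 0.05, and with the replicate block after median-of-ratios scaling, added after seeing the data, 5, with a median of 0.035.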
